A study of Homo sapiens with 44 samples.

Results

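The transcripts of 6 secreted proteins of innate immunity, PTX3, CHI3L1, HP, TNFAIP6, CHIT1 and LCN2, were followed across 44 arrays of human acute myeloid leukemia (AML), run on RNA of 4 established cell lines. All probe sets that name 1 of these genes and no other were taken, which gave 11 of the 19724 probe sets that name 1 gene, and 6 of the 12165 genes measured. PTX3, CHI3L1, HP and TNFAIP6 had been chosen by their measured changes with hairpins against GSK3A on these same arrays. Their GSK3A values are therefore given as a description, without a test. CHIT1 and LCN2 were not picked for a change, and their GSK3A values were tested.

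HL-60 is a promyelocytic line, while U937, THP-1 and MOLM-14 are monocytic. Each line carried a short hairpin RNA delivered by infection. It was either a scrambled control, 1 of 2 hairpins against GSK3B (GSK3B-1 and GSK3B-2) or 1 of 2 hairpins against GSK3A (GSK3A-5 and GSK3A-6). GSK3A and GSK3B are the genes of the 2 isoforms of glycogen synthase kinase 3, a serine/threonine kinase. All groups, controls included, were put under puromycin at 1 µg per mL 48 h after infection, and RNA was taken 48 h later. Each line had 3 control arrays and 2 arrays for each hairpin, which gave 12 control, 16 GSK3A and 16 GSK3B arrays. The labels call the replicates biological and say nothing of separate cultures or infections, so each p-value covers the spread among arrays and no more, which may be technical. Precision is limited by how few arrays a group has.

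These proteins are released by neutrophils, monocytes and macrophages and act outside the cell. PTX3, a long pentraxin, binds microbes and complement components, and TNFAIP6 (also called TSG-6) binds hyaluronan and transfers the heavy chains of inter-alpha-inhibitor to it. In the hyaluronan matrix around the ovulated oocyte PTX3 and TNFAIP6 bind each other, and both are induced by inflammatory cytokines. CHI3L1 (YKL-40) and CHIT1 (chitotriosidase) belong to the chitinase-like family of glycosyl hydrolases. CHIT1 cleaves chitin, while CHI3L1 binds it without cleaving it. HP (haptoglobin) captures free haemoglobin and LCN2 (neutrophil gelatinase-associated lipocalin) captures bacterial siderophores. Both are acute phase proteins, and neutrophils store PTX3, HP, LCN2 and CHI3L1 in secondary (specific) granules.

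The arrays held 22277 probe sets with deposited intensities from 3.40 to 12933 and array medians from 18.95 to 22.9. Under GSK3B hairpins the GSK3B transcript was at 18.9% of control intensity in MOLM-14, 24.1% in HL-60, 27.1% in U937 and 46.8% in THP-1. Under its own hairpins the GSK3A transcript, which was dim, was at 83.7% to 97.6% of control by line, and its change over the lines was -0.09 ± 0.03 (adjusted p = 0.0176). Of the 5 myeloid markers measured, PTPRC, the leukocyte antigen CD45, and CSF3R were above the array median on all arrays. MPO was above it on 11 of 11 HL-60 arrays and below it on 11 of 11 in THP-1 and U937, CD68 was below it on 11 of 11 in HL-60 and MOLM-14, and SPI1 lay near it outside HL-60. Of the other lineages, both erythroid, all 3 T cell and both B cell markers measured, with EPCAM, KRT19 and COL1A2, lay below the median on 11 of 11 arrays in every line. COL1A1, the remaining marker of the epithelial and stromal list, lay near the median, at 17.2 to 29.8, and below it on 0 of 11 arrays in HL-60, 2 in U937, 4 in MOLM-14 and 6 in THP-1. Of the 3 monocyte markers, CD14 lay below the median on 11 of 11 arrays in THP-1, MOLM-14 and U937, and CSF1R on 11 of 11 arrays in HL-60 and U937, while FCGR1A was above it on all arrays of every line.

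The promoters of 5 of the 6 genes were matched by symbol in a RefSeq table of GRCh38.p14. PTX3 and CHI3L1 were taken because their levels moved alike in HL-60, and TNFAIP6 because it moved against them there with GSK3A hairpins. CHIT1, which stayed dim, is a family member that follows CHI3L1 on chromosome 1 with no protein-coding gene between them. The promoters of these 4 genes are printed 5′ to 3′ on the strand of the gene, as the 250 bases before the transcript start. They lie at chr3:157436600-157436849 on the + strand (PTX3), chr1:203186705-203186954 on the - strand (CHI3L1), chr2:151357342-151357591 on the + strand (TNFAIP6) and chr1:203229674-203229923 on the - strand (CHIT1). The CHIT1 stretch lies within the annotated gene (chr1:203216079-203230099), so the transcript start used for it is an internal one. Capitals mark matches to 6 short motifs on either strand.
PTX3: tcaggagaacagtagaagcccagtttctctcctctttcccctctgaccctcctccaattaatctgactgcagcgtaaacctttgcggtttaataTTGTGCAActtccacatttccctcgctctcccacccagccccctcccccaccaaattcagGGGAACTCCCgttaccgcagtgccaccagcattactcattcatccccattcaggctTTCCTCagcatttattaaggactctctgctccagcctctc
CHI3L1: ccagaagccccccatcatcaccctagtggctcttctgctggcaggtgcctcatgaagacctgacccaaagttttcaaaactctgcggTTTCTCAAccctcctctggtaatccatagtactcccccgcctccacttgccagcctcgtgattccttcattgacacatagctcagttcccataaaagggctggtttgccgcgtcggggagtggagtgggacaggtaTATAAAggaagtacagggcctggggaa
TNFAIP6: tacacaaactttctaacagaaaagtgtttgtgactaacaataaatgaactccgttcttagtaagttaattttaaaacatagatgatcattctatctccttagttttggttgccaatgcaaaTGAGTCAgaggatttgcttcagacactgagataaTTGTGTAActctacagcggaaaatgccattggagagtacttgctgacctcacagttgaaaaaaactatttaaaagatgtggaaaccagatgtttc
CHIT1: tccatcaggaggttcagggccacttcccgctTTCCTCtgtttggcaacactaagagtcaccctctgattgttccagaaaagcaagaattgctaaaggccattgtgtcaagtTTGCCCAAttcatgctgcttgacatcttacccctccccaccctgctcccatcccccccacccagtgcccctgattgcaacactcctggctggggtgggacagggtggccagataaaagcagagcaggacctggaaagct

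The motifs were chosen after the sequences had been seen, and a match is a description of letters. The letters searched were TTGNGNAA for C/EBP, GGGA and CC with any 4 bases between them for NF-kB, TGANTCA for AP-1, GAGGAA for PU.1, CTTTGAT for TCF/LEF and TATAAA for a TATA box. Of 35116 promoters of the same length, 10.8% held the C/EBP letters, 22.6% the NF-kB letters, 6.57% the AP-1 letters, 23.6% the PU.1 letters, 2.26% the TCF/LEF letters and 10.7% the TATA box letters. All 5 promoters, that of LCN2 included, held a C/EBP match, and the TCF/LEF letters were in none of the 5. The PTX3 match lay 156 to 149 bases before the start and was followed by an NF-kB match 96 to 87 bases before it and a PU.1 match on the opposite strand. CHI3L1 had its C/EBP match on the opposite strand, 163 to 156 bases before the start, and a TATA box 27 to 22 bases before it. TNFAIP6 had an AP-1 match 129 to 123 bases and a C/EBP match 95 to 88 bases before the start. CHIT1 had a PU.1 and a C/EBP match, both on the opposite strand. LCN2 held overlapping NF-kB matches, a C/EBP match and an AP-1 match.

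Changes below are differences of log2(intensity + 16) after quantile normalization, with the standard error (SE) of a limma fit of the 20 group means, which shares 1 spread per gene over all lines. The added 16 makes the log2 change of a dim gene smaller than its change in intensity. Adjusted p-values are two-sided and Benjamini-Hochberg adjusted over the 12165 genes of a contrast, and a gene is called when its adjusted p is below 0.05. Intensities are the deposited values. In these bulk samples, fewer cells that make a transcript and less of it per cell cannot be told apart.

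The 6 genes differed in which lines held them. PTX3 was well measured in HL-60 and U937, CHI3L1 in all lines, and HP and TNFAIP6 in HL-60, while CHIT1 and LCN2 were dim throughout. Among control arrays the level differed between lines for 5 of the 6 genes, all but CHIT1 (moderated F-test adjusted p = 0.771), where 67.8% of all genes differed. The adjusted p-values were 1.03e-08 for PTX3, 7.52e-12 for CHI3L1, 2.96e-17 for HP, 8e-27 for TNFAIP6 and 0.00081 for LCN2. On the GSK3B arrays, which had no part in the choice of the genes, the same 5 genes differed and CHIT1 did not pass (adjusted p = 0.326), against 70.3% of all genes. The spread in that test is shared over all groups, control and GSK3A arrays included. Between single pairs of lines, control levels differed for 49.8% of all genes (HL-60 and THP-1), 41.2% (HL-60 and MOLM-14), 44.1% (HL-60 and U937), 42.9% (THP-1 and MOLM-14), 48.2% (THP-1 and U937) and 42.7% (MOLM-14 and U937).

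**Figure D1:**
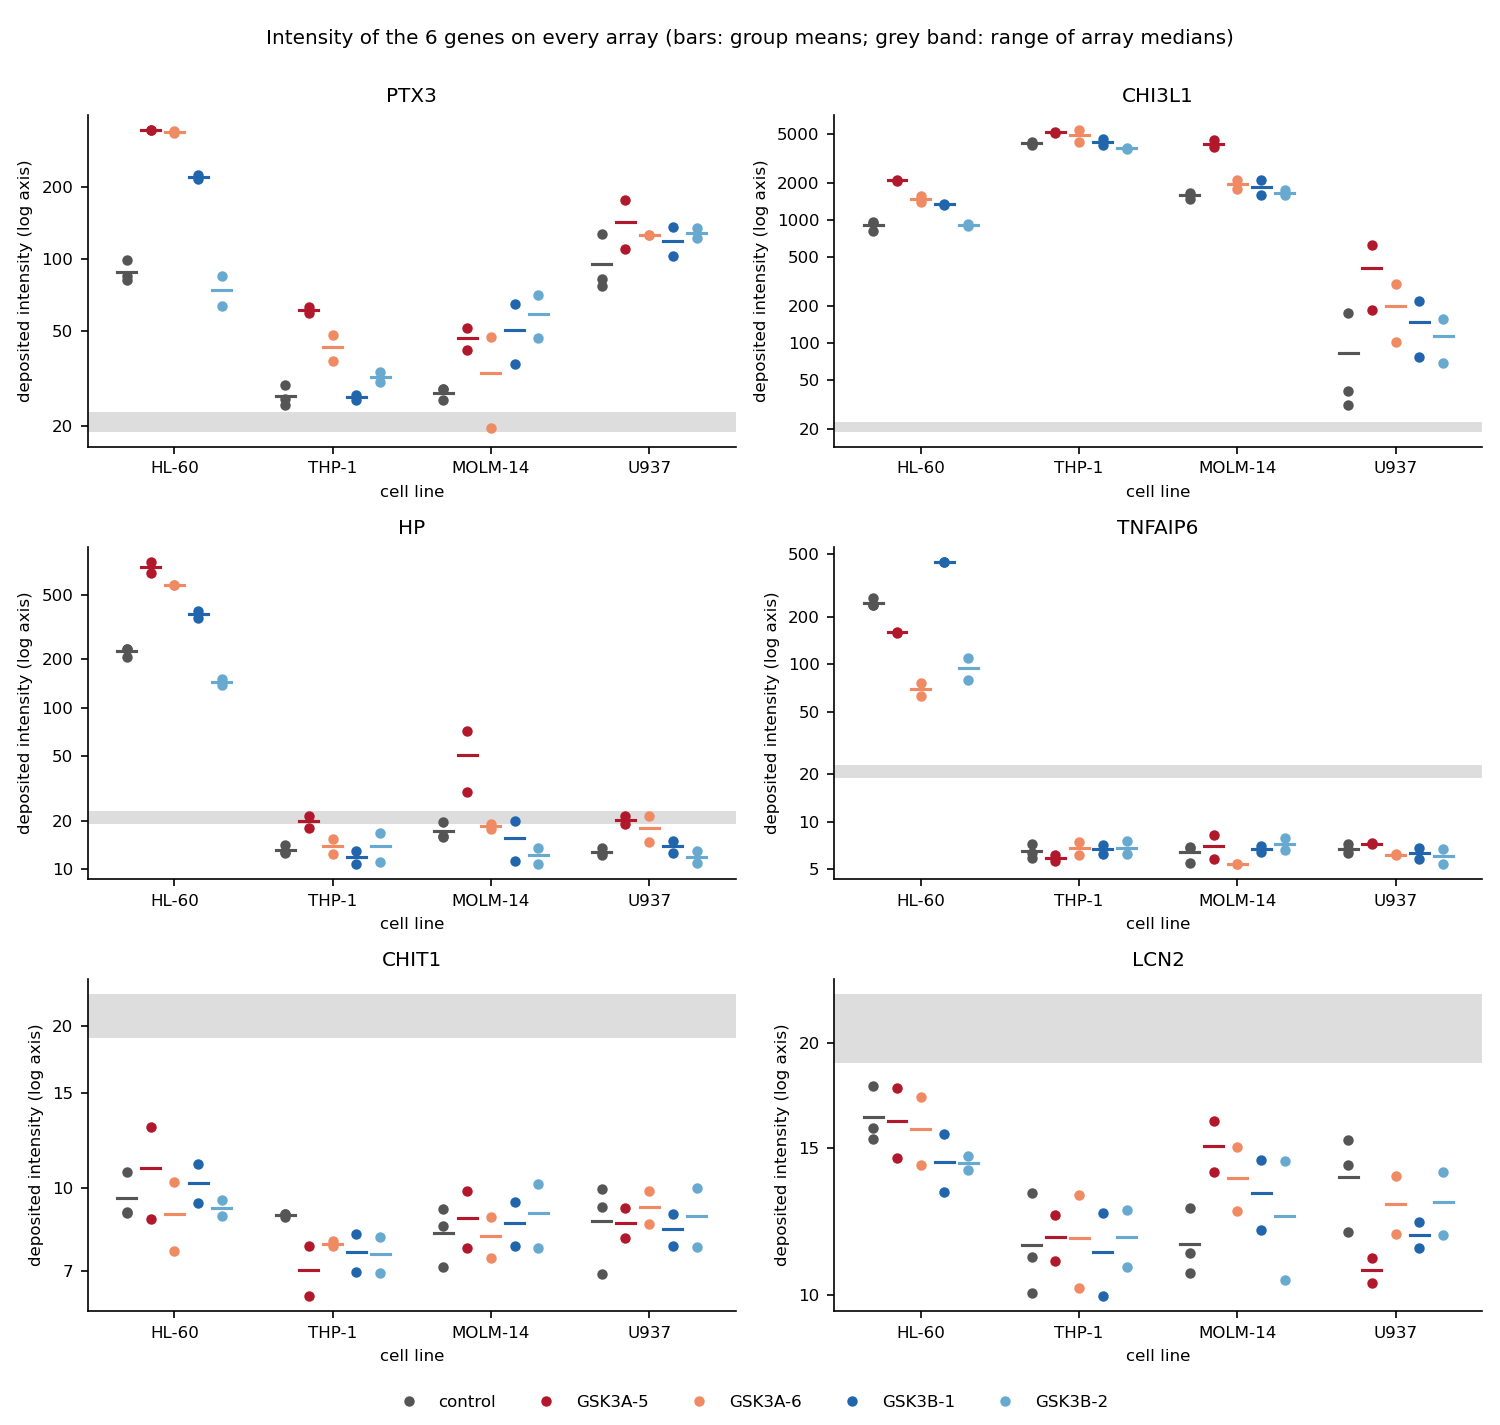
Deposited intensity (log axis) of the 6 genes by cell line, 1 point per array, coloured by construct, with bars at group means and a grey band at the range of the array medians, 18.95 to 22.9. TNFAIP6 and HP stand high above the band in HL-60, CHI3L1 is above it in every line, and CHIT1 and LCN2 lie below it on all arrays.

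PTX3 was lowest in THP-1 and MOLM-14, whose control arrays averaged 26.7 and 27.6, and highest in HL-60 and U937, at 88.7 ± 9.47 (SD, n = 3) and 95.7 ± 27.5 (SD, n = 3). Neither neighbouring pair in this order differed (HL-60 minus U937, -0.03, adjusted p = 0.93, and THP-1 minus MOLM-14, -0.08, adjusted p = 0.796), while HL-60 exceeded MOLM-14 by 1.31 (adjusted p = 1.66e-06). On the GSK3B arrays THP-1 minus MOLM-14 was -0.67 (adjusted p = 0.00112, 46.9% of all genes called).

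In HL-60 the PTX3 intensity was 81.7, 99.5 and 84.9 on the control arrays, 349 and 347 with GSK3A-5 and 336 and 344 with GSK3A-6. All 4 GSK3A arrays were above every control array, and they lay close together. Their mean was 3.88-fold the control mean, and the log2 change of 1.73 ± 0.18 was the highest of all 12165 genes in that line. In THP-1 the control arrays were at 26.0, 29.7 and 24.4, the GSK3A-5 arrays at 63.3 and 59.7 and the GSK3A-6 arrays at 37.6 and 48.2, again all above the controls, with a log2 change of 0.67 ± 0.18. MOLM-14 was mixed. Its controls were at 28.7, 28.5 and 25.7, the GSK3A-5 arrays at 51.7 and 41.7, and the GSK3A-6 arrays at 47.1 and 19.6, the last below every control. In U937 the controls were at 82.3, 77.4 and 127, and 1 of the 4 GSK3A arrays, at 176, was above all of them, the others being at 110.2, 126 and 127. The log2 change was 0.31 ± 0.18 in MOLM-14 and 0.43 ± 0.18 in U937, and 0.79 ± 0.09 over the lines. Leaving out 1 replicate moved the MOLM-14 value to 0.03 (GSK3A replicate 1) or 0.60 (GSK3A replicate 2), and the U937 value ran from 0.27 (without GSK3A replicate 2) to 0.62 (without control replicate 3).

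The GSK3B hairpins share the control arrays with the contrast that chose PTX3, CHI3L1, HP and TNFAIP6. A deviation of the control arrays would enter both contrasts, so calls of these genes against control are a description. In HL-60 the GSK3B-1 arrays read 216 and 224 and the GSK3B-2 arrays 63.8 and 85.3, so that the former were above every control and the latter were not. GSK3B-1 raised PTX3 by 1.13 ± 0.21 (adjusted p = 0.00176) and GSK3B-2 gave -0.22 ± 0.21 (adjusted p = 0.834). In MOLM-14 all 4 GSK3B arrays, at 65.2 and 36.3 for GSK3B-1 and 70.9 and 47.0 for GSK3B-2, were above the controls. PTX3 there rose by 0.68 ± 0.18 with the hairpins together (adjusted p = 0.0484), the only call among 24 gene and line pairs, where 1.44% of all genes were called in MOLM-14, 0.986% in HL-60, 0.0493% in THP-1 and 0.214% in U937. This call was lost with median scaling (adjusted p = 0.0504), cyclic loess (adjusted p = 0.0639), a pseudocount of 64 or all probe sets, without HL-60 or THP-1, and without any 1 of the control replicates (adjusted p from 0.103 to 0.218). It held in a limma fit with a block for the plate columns described below (adjusted p = 0.000144). Without GSK3B replicate 1 the change was 0.39 (adjusted p = 0.321), and without replicate 2 it was 0.96 (adjusted p = 0.0318). With GSK3B-2 alone the MOLM-14 rise was 0.77 ± 0.21 (adjusted p = 0.0398), and with GSK3B-1 alone the change was 0.58 ± 0.21 (adjusted p = 0.219), where 3.22% and 1.63% of all genes were called. In THP-1 the GSK3B arrays read 25.8, 27.1, 33.7 and 30.7, and in U937 103, 136, 123 and 136, neither change being called (adjusted p = 1 and 0.925).

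Over the lines PTX3 rose with GSK3B hairpins by 0.39 ± 0.09 (adjusted p = 0.00985) and was the 1 of the 6 genes called, against 3.32% of all genes. The control arrays had helped to choose PTX3, so this call is a description. This call was lost without HL-60 (0.37, adjusted p = 0.158), without MOLM-14 (0.29, adjusted p = 0.0517) and without replicate 1 (0.36, adjusted p = 0.113) or replicate 2 (0.39, adjusted p = 0.0588) of the controls. The PTX3 level with GSK3A hairpins less that with GSK3B hairpins takes no control mean. It was 1.28 for HL-60, 0.58 for THP-1, 0.09 for U937 and -0.36 for MOLM-14, each ± 0.16. This SE rests on the spread shared over all groups, controls included. MOLM-14 was thus the line in which PTX3 stood higher with GSK3B than with GSK3A hairpins.

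**Figure D2:**
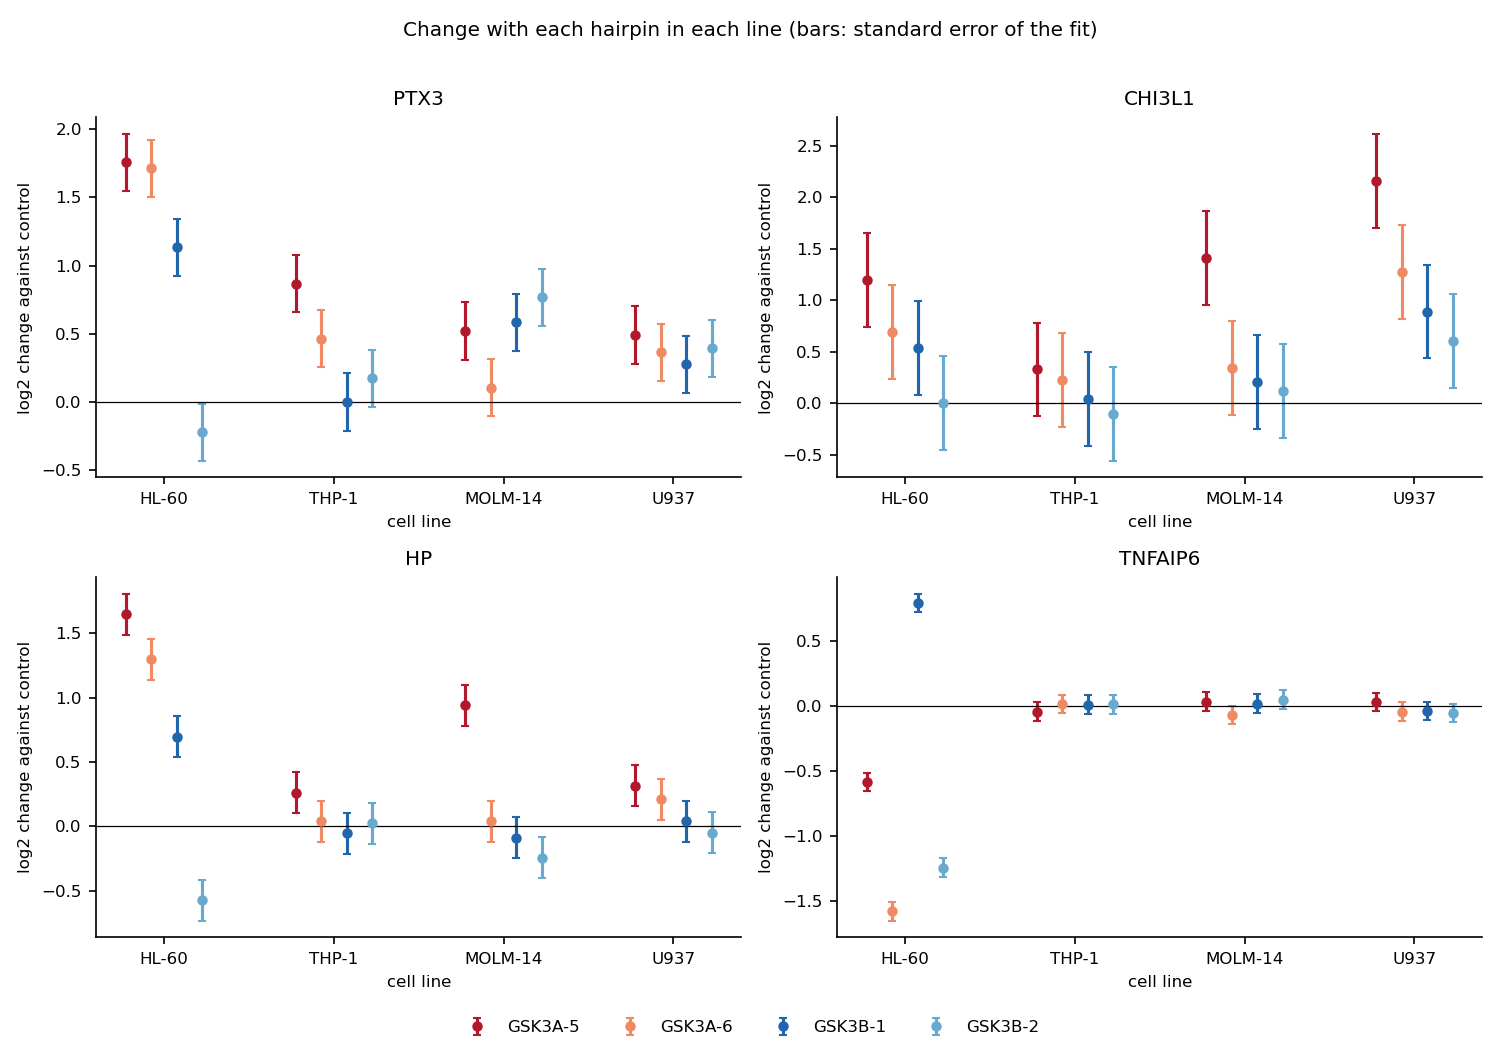
Change from control (log2, error bars SE of the fit) of the 4 picked genes for each hairpin and line. PTX3, CHI3L1 and HP lie above 0 with both GSK3A hairpins in HL-60, at 0.69 to 1.76, and TNFAIP6 lies below 0, at -0.59 and -1.58. The GSK3B-1 and GSK3B-2 points of TNFAIP6 in HL-60 lie on opposite sides of 0.

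CHI3L1, the chitin-binding lectin of the chitinase-like family, was the gene of the 6 measured in every line. Control means ran from high to low as THP-1 at 4150 ± 121 (SD, n = 3), MOLM-14 at 1571 ± 100.3, HL-60 at 900.5 ± 85.4 and U937 at 81.9 ± 79.7. THP-1 exceeded MOLM-14 by 1.40 (adjusted p = 0.00594) and HL-60 exceeded U937 by 3.52 (adjusted p = 4.37e-08). HL-60 minus MOLM-14 was -0.81 ± 0.41 and did not pass the threshold (adjusted p = 0.117). Every MOLM-14 control (1462 to 1659) nevertheless read above every HL-60 control (802 to 956). This SE is that of the spread shared over all lines, the wide U937 values included.

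In HL-60 the controls were at 956, 802 and 943, the GSK3A-5 arrays at 2102 and 2054 and the GSK3A-6 arrays at 1381 and 1549. All 4 GSK3A arrays were above the controls, and GSK3A-5 stood above GSK3A-6. In MOLM-14 the controls were at 1462, 1593 and 1659, the GSK3A-5 arrays at 3879 and 4404 and the GSK3A-6 arrays at 2082 and 1777, which is 2.64-fold and 1.23-fold the control mean. In THP-1 the controls were at 4286, 4057 and 4106 and the GSK3A arrays at 5174, 5047, 4286 and 5379, a mean 1.20-fold that of the controls. In U937 the controls spread from 31.0 and 40.9 to 174, and the GSK3A arrays read 184 and 618 with GSK3A-5 and 102 and 298 with GSK3A-6, so that 3 of 4 were above every control. The log2 changes were 1.72 for U937, 0.94 for HL-60, 0.88 for MOLM-14 and 0.27 for THP-1, each ± 0.38, and 0.95 ± 0.19 over the lines, where CHI3L1 ranked 2 of 12165 from the highest. A second CHI3L1 probe set gave 0.91 ± 0.18 over the lines, and the third was at 6.80 to 13.6, below the array median on 44 of 44 arrays.

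The wide U937 values followed the plate. The labels place each array in a plate whose rows are the cell lines. Columns 1 to 6 hold control replicates 1 and 2 and the first replicate of each hairpin, and columns 7 to 11 hold control replicate 3 and the second replicates. In U937, CHI3L1 was higher in columns 7 to 11 for 5 of 5 constructs, by 1.01 to 1.87 on the log2 scale, while in the other lines it was higher there for 2 to 4 of 5 constructs. PTX3 was also higher there for 5 of 5 constructs in U937, by 0.02 to 0.62, and lower there for 5 of 5 in MOLM-14, by -0.86 to -0.10. With the plate columns as a block the CHI3L1 change with GSK3A hairpins was 1.47 in U937 and 0.88 ± 0.05 over the lines. Without control replicate 3 the U937 change was 2.34, and it was 2.50 without GSK3A replicate 1 and 0.94 without GSK3A replicate 2.

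**Figure D3:**
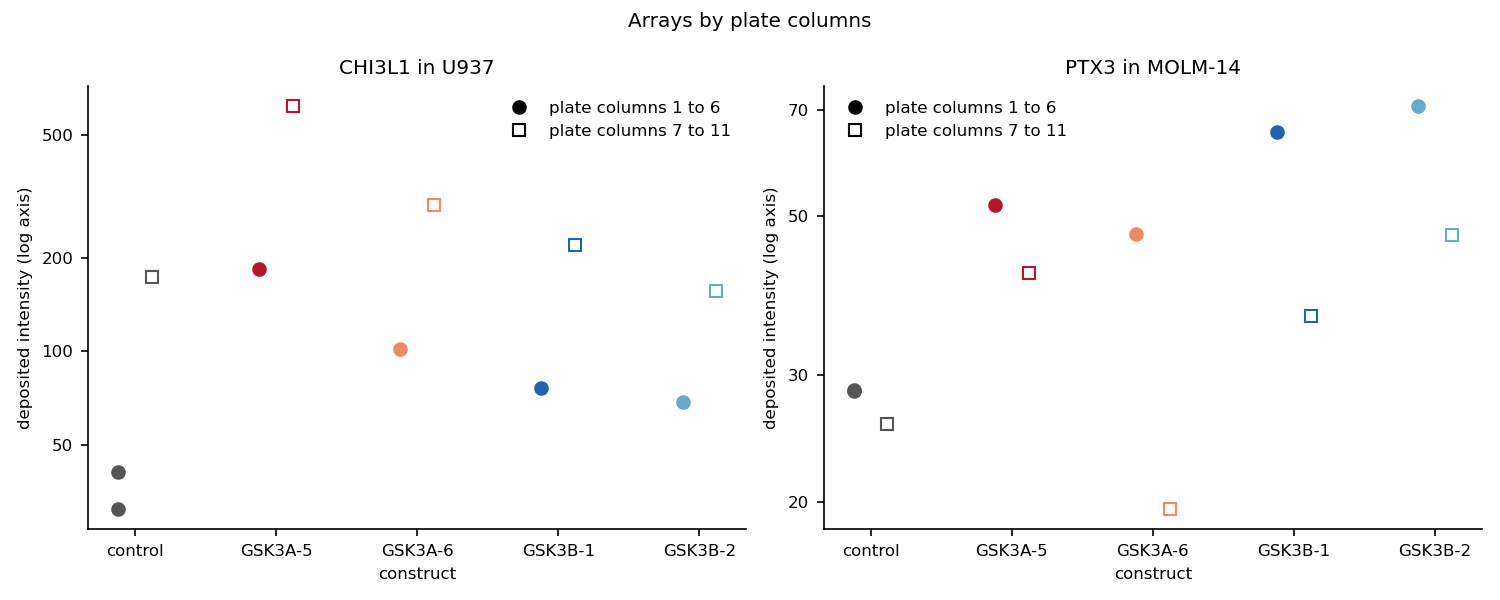
Deposited intensity of CHI3L1 in U937 and of PTX3 in MOLM-14 by construct, with filled circles for plate columns 1 to 6 and open squares for columns 7 to 11. In U937 each CHI3L1 square lies above the circles of its construct, and in MOLM-14 each PTX3 square lies below them.

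With GSK3B hairpins CHI3L1 in HL-60 read 1326 and 1347 for GSK3B-1 and 889 and 924 for GSK3B-2. In THP-1 it read 4474 and 3999 for GSK3B-1 and 3738 and 3836 for GSK3B-2, and in MOLM-14 1588 and 2082, and 1733 and 1575. In U937 it read 76.1 and 220.2 for GSK3B-1 and 68.7 and 157 for GSK3B-2. Over the lines the change was 0.29 ± 0.19 (adjusted p = 0.605). With the plate columns as a block it was smaller but more precise, 0.22 ± 0.05, and was called (adjusted p = 0.0104), where 10.1% of all genes were against 3.32% without the block. Within columns 1 to 6 it was 0.29 ± 0.05 (adjusted p = 0.0136), and within columns 7 to 11, in an additive model, it was 0.11 ± 0.16 (adjusted p = 0.997). With this block 4 of 24 gene and line pairs were called in place of 1, while the share of all genes called was 0.271% in THP-1, 1.79% in U937, 3.98% in HL-60 and 6.77% in MOLM-14. The pairs were PTX3 in HL-60 (0.44, adjusted p = 0.0219) and MOLM-14 (0.75, adjusted p = 0.000144), CHI3L1 in U937 (0.50, adjusted p = 0.0148) and TNFAIP6 in HL-60 (-0.24, adjusted p = 0.0192).

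CHIT1, the chitin-cleaving neighbour of CHI3L1, was dim in every group, with intensities from 6.30 to 13.0 that lay below the array median on 44 of 44 arrays. Its change was -0.01 ± 0.03 with GSK3A hairpins (adjusted p = 0.868, 95% interval -0.07 to 0.05) and -0.01 ± 0.03 with GSK3B hairpins (adjusted p = 0.948, interval -0.07 to 0.05). LCN2 was also below the median on 44 of 44 arrays, at 9.98 to 17.8. Its control level in HL-60 exceeded those in THP-1 by 0.27 (adjusted p = 0.000806) and MOLM-14 by 0.28 (adjusted p = 0.000725). Its change was 0.00 ± 0.03 with GSK3A hairpins (adjusted p = 0.975, interval -0.06 to 0.06) and -0.03 ± 0.03 with GSK3B hairpins (adjusted p = 0.787, interval -0.09 to 0.03). Averaged over the lines, neither of these 2 genes was called with GSK3A hairpins, where 21.0% of all genes were. Neither was called between the GSK3A hairpins, where 16.8% were, or between the targets, where 21.8% were. Neither passed at an unadjusted p below 0.05 in these averages. By line, LCN2 with GSK3A hairpins gave 0.13 in MOLM-14 (limma unadjusted p = 0.0342, adjusted p = 0.148) and -0.11 in U937 (0.0734 and 0.367). With GSK3A-5 alone it gave 0.16 in MOLM-14 (unadjusted p = 0.0336, adjusted p = 0.142) and -0.16 in U937 (0.0312 and 0.261). At such low signal the added 16 compresses any change, so these intervals hold for that scale alone.

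HP, the haemoglobin-binding acute phase protein, was held mainly by HL-60. Control arrays there read 233, 206 and 233, while the other lines lay between 12.2 and 19.7, with 30 of the 44 arrays of all groups below the array median. HL-60 exceeded MOLM-14, U937 and THP-1 by 2.87, 3.05 and 3.06 on the log2 scale, each ± 0.14. These estimates are held down by the 16 added to such dim values. The other lines lay within 0.19 of each other (adjusted p from 0.331 to 0.971). In HL-60 the GSK3A-5 arrays read 684 and 803 and the GSK3A-6 arrays 579.7 and 578. All 4 were above the controls, with a mean 2.96-fold that of the controls and a log2 change of 1.47 ± 0.13, ranked 3 of 12165 from the highest. In MOLM-14 HP read 16.1, 19.7 and 15.8 on the controls, 72.0 and 30.3 with GSK3A-5 and 17.9 and 19.2 with GSK3A-6, so that only the GSK3A-5 arrays were above the controls. In THP-1 the GSK3A arrays read 18.1, 21.5, 15.4 and 12.5 and in U937 19.0, 21.5, 21.2 and 14.7, values within or below the range of the array medians. The log2 changes there were 0.15 for THP-1, 0.26 for U937 and 0.49 for MOLM-14, each ± 0.13. The MOLM-14 value was 0.25 without GSK3A replicate 1 and 0.73 without replicate 2.

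With GSK3B-1 in HL-60 HP read 362 and 399.5, and with GSK3B-2 it read 138 and 151, above and below every control. HP rose by 0.70 ± 0.16 with GSK3B-1 (adjusted p = 0.0128) and fell by 0.57 ± 0.16 with GSK3B-2 (adjusted p = 0.048). The GSK3B-2 call was lost when any 1 of the control or GSK3B replicates was left out (adjusted p from 0.0989 to 0.419) and held without either GSK3A replicate (adjusted p = 0.00172), while the GSK3B-1 call was lost without GSK3B replicate 1 (adjusted p = 0.126) or 2 (adjusted p = 0.272) and without control replicate 1 (adjusted p = 0.0538) or 2 (adjusted p = 0.0983).

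The dimmer HP probe sets did not follow this one. One of them read 13.1 to 18.2 on the HL-60 controls, 10.9 to 12.7 with GSK3B-1 and 16.3 to 26.8 with GSK3B-2, and the other read 30.6 to 34.4, 28.2 to 28.8 and 43.2 to 51.5. In both the GSK3B-1 level was below the GSK3B-2 level (-0.50 ± 0.10, adjusted p = 0.00183, and -0.49 ± 0.13, adjusted p = 0.0231), the opposite order. They lay below the array median on 43 and 18 of 44 arrays. With GSK3A hairpins in HL-60, 3 of 4 arrays lay below every control in each of them, and 0 above. In MOLM-14 the first had 4 of 4 GSK3A arrays below every control, and the second had 0 below and 1 above. A probe set outside the choice of genes, because it names HPR as well as HP, had the order of the bright HP probe set. It read 247 to 288 on the HL-60 controls, 372 and 425 with GSK3B-1, 160 and 166 with GSK3B-2, 899 and 995 with GSK3A-5 and 611 and 632 with GSK3A-6. HPR is a close copy of HP, so these readings cannot be split between the genes.

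TNFAIP6, the hyaluronan-binding partner of PTX3, was measured in HL-60 alone. Elsewhere it read 5.39 to 8.18 on all 33 arrays, below every array median, and HL-60 controls exceeded the other lines by at least 3.52 (adjusted p of 2.06e-25 or less). These estimates are held down, because the other lines are near the bottom of the signal range and the added 16 sets their value. In HL-60 the controls read 238, 238 and 262, the GSK3A-5 arrays 158 and 161 and the GSK3A-6 arrays 76.2 and 62.6. All 4 GSK3A arrays were below the controls, at 64.8% of the control mean with GSK3A-5 and 28.2% with GSK3A-6. The log2 change of -1.08 ± 0.06 ranked 3 of 12165 from the lowest, and the GSK3A-5 level exceeded the GSK3A-6 level by 1.00 ± 0.08. TNFAIP6 thus moved against PTX3, CHI3L1 and HP under the same hairpins.

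With GSK3B-1 in HL-60 TNFAIP6 read 446 and 447, above every control, and with GSK3B-2 it read 79.4 and 109, below every control. It rose by 0.80 ± 0.07 with GSK3B-1 (adjusted p = 8.54e-08) and fell by 1.24 ± 0.07 with GSK3B-2 (adjusted p = 4.45e-12). In fits of all lines, here and elsewhere, the SE and p-values of TNFAIP6 rest on a spread shared with 33 dim arrays. Between plate columns TNFAIP6 moved by -0.19 to 0.40 by construct in HL-60, and by -0.09 to 0.15 in the other lines. These SEs may thus be too small for HL-60. In that line 3 of the 6 genes were called with GSK3B-1, against 2.49% of all genes, and 2 with GSK3B-2, against 2.68%. The called genes had been picked by changes from these same control arrays, so the counts are a description. Averaged over the lines TNFAIP6 gave 0.20 with GSK3B-1 (adjusted p = 0.000879, 4.64% of all genes called) and -0.31 with GSK3B-2 (adjusted p = 9.21e-07, 6.27% called). These averages rest on the HL-60 changes, and without HL-60 they were -0.001 and 0.005. Over the lines PTX3 passed with GSK3B-1 (0.50, adjusted p = 0.00386). It did not pass without HL-60 (0.29, adjusted p = 0.54), without GSK3B replicate 1 (0.47, adjusted p = 0.0847) or in the additive model (adjusted p = 0.244). Averaged over both hairpins the TNFAIP6 change was -0.05 (adjusted p = 0.471), since opposite changes were averaged.

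The GSK3B hairpins were then compared with each other. The difference is between means of GSK3B arrays, with no control array and no array that chose the genes. Its SE and p-values rest on the spread shared over all groups, which includes the control and GSK3A arrays. Over the lines HP was higher with GSK3B-1 than with GSK3B-2 by 0.36 ± 0.09 (adjusted p = 0.00572) and TNFAIP6 by 0.51 ± 0.04 (adjusted p = 4.34e-10), so that 2 of the 6 genes were called, against 11% of all genes. The HP call was lost without GSK3B replicate 1 (0.41, adjusted p = 0.108) or 2 (0.30, adjusted p = 0.266) and without HL-60 (0.06, adjusted p = 0.934), and without HL-60 the TNFAIP6 difference was -0.006. With the plate columns as a block PTX3 (0.22, adjusted p = 0.0295) and CHI3L1 (0.26, adjusted p = 0.00738) were called as well, 4 of 6, against 22.5% of all genes with that block. The comparison was taken apart by line after the values had been seen. In HL-60 the difference was 1.36 ± 0.23 for PTX3 (adjusted p = 0.000219), 1.27 ± 0.17 for HP (adjusted p = 1.22e-05) and 2.04 ± 0.08 for TNFAIP6 (adjusted p = 4.12e-16), which ranked 2 of 12165 from the highest. These 3 of the 6 genes were called, against 7.55% of all genes. PTX3 was not called without replicate 1 of the GSK3B hairpins (1.21, adjusted p = 0.0547). None of the 6 was called in THP-1, MOLM-14 or U937, where 0.847%, 4.78% and 0.830% of all genes were. In that order PTX3 gave -0.17, -0.18 and -0.12, HP -0.08, 0.15 and 0.09, and TNFAIP6 -0.00, -0.03 and 0.02. At an unadjusted p below 0.05 none of the 6 passed in these lines either. HP and TNFAIP6 were so dim there that a fall could hardly show, although a rise could. For them a test of the hairpin difference between lines cannot tell a hidden fall from a difference between lines. For PTX3 such a moderated F-test gave an adjusted p of 0.00934 (1.91% of all genes called), which was 0.541 without GSK3B replicate 1 and 0.204 without replicate 2.

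CHI3L1 in HL-60 gave 0.54 ± 0.50 for the same difference (adjusted p = 0.701), although its GSK3B-1 arrays were above both GSK3B-2 arrays and every control. Its SE is that of the spread shared over all lines, which includes the U937 gap between plate columns. In a fit of the HL-60 arrays alone, added after these values were seen, the difference was 0.54 ± 0.08 (adjusted p = 0.000997), and all 4 picked genes were called, against 18.7% of all genes in that fit. In that fit CHI3L1 rose with GSK3B-1 against control by 0.54 ± 0.07 (adjusted p = 0.00163, 10.3% of all genes called) and gave 0.00 with GSK3B-2 (adjusted p = 0.996, 8.79% called).

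**Figure D4:**
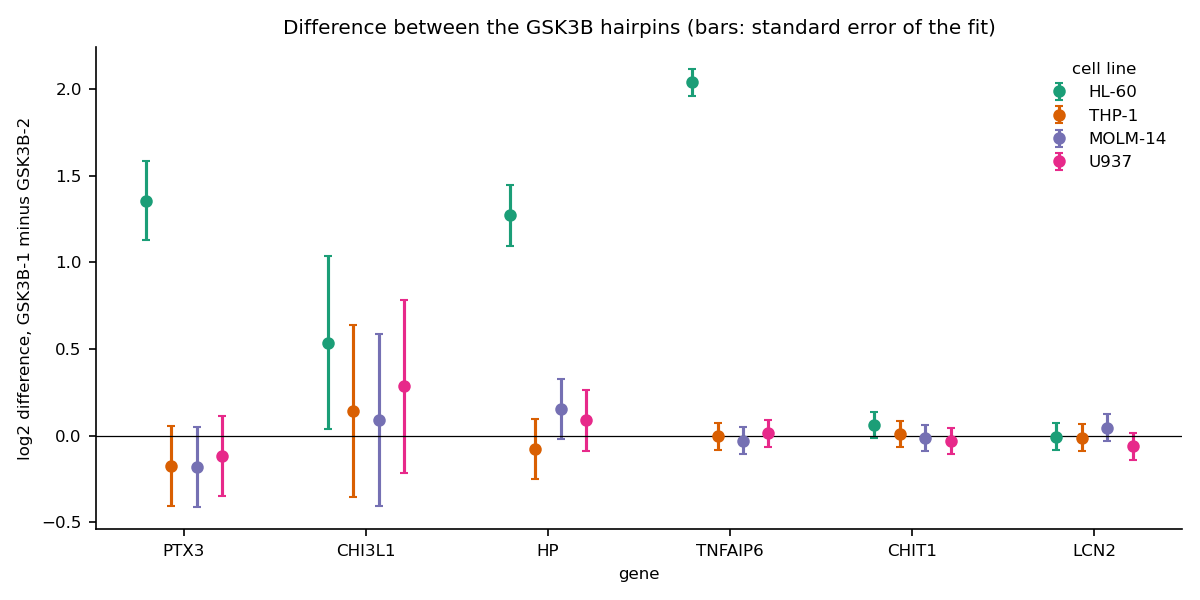
Level with GSK3B-1 minus level with GSK3B-2 (log2, error bars SE of the fit) of the 6 genes by cell line. In HL-60 PTX3, HP and TNFAIP6 lie at 1.36, 1.27 and 2.04, and in the other lines their points lie between -0.18 and 0.15.

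The GSK3B transcript itself fell in HL-60 by 1.49 ± 0.11 with GSK3B-1 (adjusted p = 5.11e-09) and by 1.86 ± 0.11 with GSK3B-2 (adjusted p = 8.61e-12), and over the lines it was higher with GSK3B-1 than with GSK3B-2 by 0.25 ± 0.06 (adjusted p = 0.00607). The part of this in the results was not tested. In HL-60 the mean levels of PTX3 and HP had 1 order, GSK3A-5, GSK3A-6, GSK3B-1, control and GSK3B-2 from high to low. CHI3L1 had the same order apart from control (900.5) and GSK3B-2 (906), which were close. TNFAIP6 had the order GSK3B-1, control, GSK3A-5, GSK3B-2 and GSK3A-6. Over the 11 HL-60 arrays the Pearson correlation was 0.97 between PTX3 and HP, 0.92 between PTX3 and CHI3L1 and 0.94 between CHI3L1 and HP, while TNFAIP6 gave -0.12, -0.10 and -0.07 with PTX3, CHI3L1 and HP. These arrays share 5 constructs, so the correlations describe group differences as much as arrays.

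The summed intensity of the monocyte markers CD14, CSF1R and FCGR1A moved with some of these groups. In HL-60 it was 621 to 676 on control arrays, 781 to 1759 on GSK3A arrays and 619.8 to 790.1 on GSK3B arrays. In THP-1 the ranges were 845 to 897, 1122 to 1226 and 789.9 to 1048, in MOLM-14 537 to 662, 593 to 1030 and 583 to 729.5, and in U937 118 to 317, 166 to 523 and 146 to 330.1. The ranges of control and GSK3A arrays did not overlap in HL-60 and THP-1. This was not particular to monocyte markers. The myeloid marker sum was lower with GSK3A hairpins in HL-60 (4912 to 5453, control 5784 to 6237). It was higher in THP-1 (784.5 to 939.1, control 741.1 to 764.3) and U937 (813.3 to 950.1, control 633.9 to 698.8). Dim sums parted as well, erythroid in MOLM-14 (19.7 to 23.8, control 24.2 to 24.9) and T cell in U937 (29.5 to 37.3, control 28.2 to 29.3). Each sum is set by its brightest genes, so a parted sum need not mean that all its markers moved. Over the HL-60 arrays CD14 read 137 to 1144, FCGR1A 337 to 598 and CSF1R 9.33 to 16.9. In THP-1 FCGR1A read 725 to 1178 and CD14 9.55 to 17.7. MPO, at 4178 to 5827, made up most of the myeloid sum in HL-60. The part of the monocyte or other markers in the results was not tested.

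The genes most like each member were taken by Pearson correlation over the 44 arrays after the mean of each line was subtracted. For PTX3 they were CTDSP2 (0.79), RGS2 (0.78) and PELI1 (0.77), and for CHI3L1 CSTA (0.90), FCGR1BP (0.89) and HLA-B (0.86). For HP they were S100A4 (0.87), S100A6 (0.86) and CRISPLD2 (0.84), and for TNFAIP6 GNLY (0.78), CLC (0.76) and CYP4F3 (0.72). CHIT1 and LCN2, with little range to correlate, reached 0.58 with RMST and 0.53 with KCNJ5 at most. Over the 20 group means, where differences between lines dominate, the nearest genes were MMP25 (0.93) and SERPINA1 (0.92) for PTX3, TSG101 (0.98) and FCGR1A (0.97) for CHI3L1, CD14 (0.98) and TLR8 (0.98) for HP and ARG1 (0.98) and S100A12 (0.98) for TNFAIP6. The arrays share constructs and plate positions, and these values describe likeness of pattern only.

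Around the 6 genes, 7 lists of related genes were counted. With GSK3A hairpins, 1320 of 12165 genes rose (10.9%) and 1240 fell (10.2%), with a median change over all genes of 0. With GSK3B hairpins 216 rose (1.78%) and 188 fell (1.55%), with a median of 0.003. Between the GSK3B hairpins, 641 genes were higher (5.27%) and 696 lower (5.72%) with GSK3B-1, with a median of -0.005. The lists were written with earlier results of these data known, and their counts are descriptions.

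Of the 18 measured genes (of 22 listed) of soluble pattern recognition and complement, 1 rose with GSK3A hairpins, none fell and the median change was -0.00. It was CFP, properdin, the positive regulator of the alternative complement pathway, by 0.39 ± 0.09 (adjusted p = 0.00261). In HL-60 CFP read 77.6 to 91.2 on control arrays, 150.5 to 154 with GSK3A-5 and 153 to 161 with GSK3A-6, and it read 108 to 119.8 with GSK3B-1 and 52.6 to 54.2 with GSK3B-2. As for HP, the GSK3B-1 arrays were above and the GSK3B-2 arrays below every control. With GSK3B hairpins none of the 18 was called by limma, and 1 had an unadjusted p below 0.05. Between them NPTX2, a neuronal pentraxin, was lower with GSK3B-1 (-0.26, adjusted p = 0.0184). Of the 4 measured of 5 further chitinase family genes none was called in any of these comparisons, with medians of 0.00, 0.05 and 0.00 for GSK3A hairpins, GSK3B hairpins and the difference between the GSK3B hairpins, and 1 had an unadjusted p below 0.05, with GSK3B hairpins.

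Of the 13 measured of 15 acute phase genes, 1 rose with GSK3A hairpins (median 0.01), none was called with GSK3B hairpins together (median -0.01, 1 at an unadjusted p below 0.05) and 2 were higher with GSK3B-1 than GSK3B-2 (median 0.01). ORM1, an alpha-1-acid glycoprotein stored in neutrophil granules, rose by 0.19 ± 0.03 with GSK3A hairpins (adjusted p = 7.17e-05) and was higher with GSK3B-1 by 0.26 (adjusted p = 9.16e-05). In HL-60 ORM1 read 119 to 145 on controls, 236 to 268 with GSK3A-5, 147 to 174 with GSK3A-6, 209.5 to 272 with GSK3B-1 and 116 to 118 with GSK3B-2. SERPINA1, the elastase inhibitor alpha-1-antitrypsin, was higher with GSK3B-1 by 0.34 (adjusted p = 0.0231). In HL-60 it read 222 to 234 on controls, 319.7 to 334 with GSK3A hairpins, 275 to 287 with GSK3B-1 and 96.2 to 114 with GSK3B-2.

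Of the 12 measured of 13 secondary and gelatinase granule genes, 3 rose with GSK3A hairpins and none fell (median 0.02). They were CAMP, the precursor of the antimicrobial peptide LL-37, by 0.36 ± 0.09 (adjusted p = 0.00367), MMP25, a membrane-bound neutrophil metalloproteinase, by 0.20 ± 0.05 (adjusted p = 0.00254), and LTF, lactoferrin, by 0.06 ± 0.02 (adjusted p = 0.0385). LTF was dim, with a mean intensity of 7.21 over all arrays, below the array medians. CAMP and MMP25 averaged 22.9 and 24.8, near the medians. CAMP was highest in U937, where it read 19.5 to 40.9 on controls, 56.7 to 168 with GSK3A-5 and 34.1 to 34.7 with GSK3A-6. MMP9, gelatinase B, was the 1 gene of this list to rise with GSK3B hairpins (0.26 ± 0.07, adjusted p = 0.0347, median of the list 0.04). Between the hairpins MMP9 was higher with GSK3B-1 by 0.54 (adjusted p = 0.000149), MMP25 by 0.22 (adjusted p = 0.0217) and ARG1 by 0.21 (adjusted p = 0.0221). MMP9 in HL-60 read 11.4 to 16.4 on controls, 35.8 to 47.6 with GSK3B-1 and 13.8 to 16.5 with GSK3B-2, and in MOLM-14 26.3 to 62.0 with GSK3B-1 against 12.9 to 18.2 on controls.

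Of the 11 measured of 14 hyaluronan matrix genes, the ligands, enzymes and receptors around TNFAIP6, 1 rose and 1 fell with GSK3A hairpins (median -0.01) and none was called with GSK3B hairpins together, at an unadjusted p below 0.05 either. VCAN, versican, a large proteoglycan that binds hyaluronan, rose by 0.25 ± 0.05 (adjusted p = 0.000129), and HMMR, a hyaluronan receptor that is also a mitotic spindle protein, fell by 0.27 ± 0.08 (adjusted p = 0.0113). VCAN in HL-60 read 9.98 to 18.7 on controls, 51.4 to 65.6 with GSK3A-5 and 10.3 to 11.7 with GSK3A-6. The hairpins thus differed there, and in THP-1 VCAN read 26.2 to 30.9 on controls, 40.1 to 43.1 with GSK3A-5 and 28.9 to 44.3 with GSK3A-6. CD44, the main hyaluronan receptor, was higher with GSK3B-1 than GSK3B-2 by 0.41 (adjusted p = 0.00556). CD44 in HL-60 read 210.3 to 261 on controls, 430.1 to 456 with GSK3B-1, 162 to 165 with GSK3B-2, 338 to 363 with GSK3A-5 and 146 to 185 with GSK3A-6.

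Of the 9 measured of 10 receptors and partners of the 6 proteins, 1 rose with GSK3A hairpins (median 0.01) and none was called with GSK3B hairpins, at an unadjusted p below 0.05 either. The gene was CD163, the receptor for haptoglobin-haemoglobin complexes, by 0.13 ± 0.04 (adjusted p = 0.0127). In MOLM-14 CD163 read 7.10 to 9.42 on controls, 18.0 to 27.0 with GSK3A-5 and 11.6 to 13.0 with GSK3A-6, levels within or below the range of the array medians but for the highest. Of the 9 measured of 10 transcription factors of secondary granule and acute phase genes, 1 rose and 1 fell with GSK3A hairpins (median 0.00). CEBPD, a C/EBP factor induced in the acute phase, rose by 0.21 ± 0.04 (adjusted p = 0.000438), and GFI1, a repressor needed for neutrophil differentiation, fell by 0.37 ± 0.03 (adjusted p = 5.33e-10). GFI1 in HL-60 read 592 to 608 on controls, 442 to 481 with GSK3A-5 and 520.1 to 607 with GSK3A-6. With GSK3B hairpins CEBPD rose by 0.15 ± 0.04 (adjusted p = 0.0427) and STAT3, the main signal carrier of interleukin-6, by 0.17 ± 0.04 (adjusted p = 0.00334, median of the list 0.04). Between the GSK3B hairpins CEBPA was higher (0.18, adjusted p = 0.0352) and GFI1 lower (-0.14, adjusted p = 0.0136) with GSK3B-1.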

How the data were processed

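RNA of 4 AML cell lines was measured on 44 Affymetrix arrays, 11 per line. The deposited values are probe set intensities on a linear scale, made by the authors from the scans. RMA and MAS5 are named per the submitters' processing notes, and which of them made the table, with its settings, is not given in the sources used here. Every data column belongs to a sample of the labels.

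The log2 of intensity + 16 was taken, and arrays were quantile-normalized. Symbols came from the platform annotation, updated by Entrez identifier for 19707 probe sets. Of 22277 probe sets, 62 are controls, 568 name several genes and 1923 name none, and these were left out. The probe set with the highest mean stood for each of 12165 genes. A linear model with 1 mean for each of 20 groups (combinations of line and construct) was run in limma 3.58.1 under R 4.3.3, with 24 residual degrees of freedom, and the script was tested on simulated data. Contrasts over lines average the 4 lines with equal weight. P-values were adjusted by the Benjamini-Hochberg method over all genes, with a threshold of 0.05, and a moderated F-test compared the lines.

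The members and the gene lists were chosen with earlier results of these data known. Named genes are the 6 members, the 2 targets, the 3 genes most like each member over the 44 line-centred arrays and the 2 over the 20 group means, and up to 3 called genes per list with the smallest adjusted p. In the lists, the genes called between the GSK3B hairpins were named after their values were seen. Monocyte markers, HPR and the probe sets of other genes serve as context.

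Alternatives were median scaling, cyclic loess, other pseudocounts, a filter on dim genes (intensity 32 on 4 arrays), all probe sets, an additive model, blocks for plate columns or replicate number, either range of plate columns alone, and leaving out each replicate or line. Arrays in the same plate columns deviated together within MOLM-14 (r from 0.561 to 0.753 over 10 pairs of constructs) and U937 (0.761 to 0.821), but not in every pair within HL-60 (-0.03 to 0.118) or THP-1 (-0.10 to 0.15). The numbers were therefore not taken as a pairing. The main model holds no term for plate columns, which were treated as a batch only in the alternatives with a plate block. Plate rows are the cell lines, so row and line cannot be told apart.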

Additional observations from a re-analysis of the deposited data

Results flagged for a closer look

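The difference between the GSK3B hairpins was compared between lines by a moderated F-test, added after the values had been seen. The adjusted p was 0.00934 for PTX3, 0.0045 for HP and 3.64e-13 for TNFAIP6. HP and TNFAIP6 were dim outside HL-60, where a fall could hardly show and the added constant makes a rise smaller. A rise in HP could still show in MOLM-14, where the GSK3A-5 level exceeded the GSK3A-6 level by 0.90 ± 0.17. Against control, GSK3B-1 changed HP by 0.70 in HL-60 and by -0.05, -0.09 and 0.04 in THP-1, MOLM-14 and U937. TNFAIP6 changed by 0.80, 0.01, 0.02 and -0.04 in the same order. For these genes the test cannot tell a fall hidden by low signal from a difference between lines. PTX3, measured in U937 at 103 to 136 with both hairpins, gave 1.36 in HL-60 and -0.17, -0.18 and -0.12 in THP-1, MOLM-14 and U937. Its adjusted p was 0.541 without GSK3B replicate 1 and 0.204 without replicate 2, and that of HP was 0.377 and 0.364.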

How the results depend on the processing

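With GSK3B hairpins over the lines, 1 member was called. The replicate block by plate columns gave 2, the block by replicate number 2, columns 1 to 6 alone 2, and the additive model, columns 7 to 11 alone, leaving out HL-60 and leaving out MOLM-14 gave 0 each, with 0 to 1 without single replicates. Between the GSK3B hairpins over the lines, 2 were called, 4 with the plate block, 0 with the additive model, columns 7 to 11 alone or without HL-60, and 1 to 2 without single replicates. Within each line, 1 of 24 pairs was called, 4 with the plate block or columns 1 to 6 alone, 3 with the block by number, 0 with median scaling, cyclic loess, a pseudocount of 64 or all probe sets, and 0 to 2 without single replicates. The GSK3B change differed between lines for 0 members by limma's F-test (1 at an unadjusted p below 0.05), and for 1 with the block by number. The comparisons of GSK3B hairpins added after the values were seen gave 2 to 3 calls in HL-60 and 1 to 3 between lines without single replicates. The HL-60 arrays alone gave 4.

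Without HL-60 the dim TNFAIP6 values turned sign, to -0.001 with GSK3B-1, 0.005 with GSK3B-2 and -0.006 between them. For HP and TNFAIP6 the HL-60 difference between the GSK3B hairpins kept its call in 22 and 21 alternatives (1.06 to 1.35, highest adjusted p = 0.0136, and 1.66 to 2.24, highest adjusted p = 1.38e-05). HP with a pseudocount of 1 lost the GSK3B-1 call in HL-60 (0.73, adjusted p = 0.113) and the GSK3B-2 call (adjusted p = 0.208).

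Counts over all genes moved further. GSK3A hairpins gave 2560 genes, 4041 with the plate block, 476 in columns 7 to 11 and 1593 without HL-60. GSK3B hairpins gave 404, with 1230 (plate block), 1039 (number block), 199 (additive), 911 (columns 1 to 6), 5 (columns 7 to 11), 126 (without HL-60), 245 (without THP-1) and 172 to 423 without single replicates. Between the GSK3B hairpins 1337 were called, with 2737 (plate block), 2192 (number block), 301 (columns 7 to 11), 503 (without HL-60) and 463 to 1418 without single replicates. In HL-60 918 were called, with 2177 (plate block), 1663 (number block), 2275 (HL-60 arrays alone) and 263 to 978 without single replicates. Levels between lines gave 8244 (control arrays) and 8558 (GSK3B arrays), and 13562 and 14368 when all probe sets were tested. The cause of these shifts was not tested, apart from fewer arrays when plate columns or a line were left out and more features in the last. Signal near the array median limits CHIT1 and LCN2 in every line, HP and TNFAIP6 outside HL-60, and PTX3 in THP-1 and MOLM-14.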
